A study of Homo sapiens with 2 samples.

Results

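Genes of transsulfuration and glutathione metabolism were examined in U251, an established cell line from a human glioblastoma, after the cells had been given G-TPP or its solvent DMSO. They were chosen by name, with earlier results of these data known. The 9 genes run from cystine import (SLC7A11) through cysteine synthesis (CBS and CTH) to glutathione synthesis (GCLC, GCLM and GSS), reduction (GSR) and breakdown (CHAC1 and CHAC2). A gene was measured here if a probe set of the array carried its symbol alone, which held for 8 of the 9, with 1 probe set each, among 18417 genes so named. CBS, the first enzyme of transsulfuration, shares its probe set with another symbol in the platform's annotation, so no value is given for it.

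The cells of the G-TPP group received 5 µM of the compound for 6 h, and the cells of the DMSO group received DMSO over the same protocol. G-TPP is a Gamitrinib, an Hsp90 inhibitor of the geldanamycin type coupled to a triphenylphosphonium cation that carries it to mitochondria, and the study asked how genes respond when Hsp90 chaperones there are targeted. All cells were U251 kept in high-glucose DMEM, so the measurements describe 1 cell line. Each group has 1 array, and no test, standard error or p-value can be given. "Higher" and "lower" below describe the 2 arrays, and whether the difference exceeds that between replicate cultures was not measured.

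Glutathione is a tripeptide of glutamate, cysteine and glycine and the main thiol that cells use against oxidants and electrophiles. Its cysteine comes from cystine, which the SLC7A11 transporter brings in, or from methionine by way of homocysteine and cystathionine in the transsulfuration pathway. Glutamate-cysteine ligase and glutathione synthetase then join the amino acids, glutathione reductase regenerates the oxidised form, and the cytosolic enzymes of the ChaC family split the molecule. Transcription factors known to regulate several of these genes in human and mouse cells include ATF4 of the integrated stress response and NRF2 (the product of NFE2L2) of the antioxidant response.

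RefSeq promoter sequence of build GRCh38.p14 was at hand for 5 of the 8 measured genes, namely CTH, GCLC, GCLM, CHAC1 and CHAC2. The 250 bases before the main annotated start site of each gene are shown, 5′ to 3′ on the gene's strand. They are given because these genes include the pair of glutamate-cysteine ligase subunits and the pair of ChaC enzymes that are compared below. Capitals mark matches, on either strand, to 3 motifs: TTNCATCA, a form of the element bound by ATF4 with C/EBP partners, TGACNNNGC, the core of the antioxidant response element, and TGACGT, the core of the element bound by CREB and ATF factors.
CTH, chr1:70411018-70411267, plus strand: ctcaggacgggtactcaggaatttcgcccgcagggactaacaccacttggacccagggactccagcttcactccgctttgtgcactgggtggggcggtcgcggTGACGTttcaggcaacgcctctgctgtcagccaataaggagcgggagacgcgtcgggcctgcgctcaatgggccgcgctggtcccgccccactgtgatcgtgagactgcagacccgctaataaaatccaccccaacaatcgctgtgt
GCLC, chr6:53545102-53545351, minus strand: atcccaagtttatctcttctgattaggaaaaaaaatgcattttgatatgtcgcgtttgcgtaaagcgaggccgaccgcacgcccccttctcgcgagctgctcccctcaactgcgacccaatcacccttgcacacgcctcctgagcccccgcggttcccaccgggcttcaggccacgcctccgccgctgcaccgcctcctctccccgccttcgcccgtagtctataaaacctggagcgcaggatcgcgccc
GCLM, chr1:93909431-93909680, minus strand: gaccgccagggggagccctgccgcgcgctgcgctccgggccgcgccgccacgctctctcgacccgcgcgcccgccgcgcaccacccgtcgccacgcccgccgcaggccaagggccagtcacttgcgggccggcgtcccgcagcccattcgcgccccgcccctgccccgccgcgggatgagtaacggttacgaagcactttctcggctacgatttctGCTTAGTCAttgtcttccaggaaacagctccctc
CHAC1, chr15:40953221-40953470, plus strand: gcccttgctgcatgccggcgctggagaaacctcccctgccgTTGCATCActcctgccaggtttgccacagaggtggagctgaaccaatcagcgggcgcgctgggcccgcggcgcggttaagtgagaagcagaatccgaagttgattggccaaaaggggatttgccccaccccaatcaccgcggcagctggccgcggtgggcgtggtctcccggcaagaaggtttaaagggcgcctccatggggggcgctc
CHAC2, chr2:53767533-53767782, plus strand: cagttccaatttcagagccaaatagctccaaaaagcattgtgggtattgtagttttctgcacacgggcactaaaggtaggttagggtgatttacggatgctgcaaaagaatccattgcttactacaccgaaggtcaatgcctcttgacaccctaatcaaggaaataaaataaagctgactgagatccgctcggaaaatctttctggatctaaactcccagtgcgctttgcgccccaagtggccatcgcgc

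In a window of 300 bases, which adds the first 50 bases after the start, each of 3 genes held 1 match, and no matches overlapped. CHAC1 held TTGCATCA at positions -209 to -202 from its start, a match to TTNCATCA, which the promoters of 3.67% of the 27305 genes with an entry hold. GCLM held the antioxidant element core at -34 to -26, where the strand shown reads GCTTAGTCA, and 13.6% of promoters hold that core. CTH held TGACGT at -147 to -142, which 8.32% of promoters hold. GCLC and CHAC2 had none of the 3 motifs in this window, and CHAC2 had none at a second annotated start either. Sequence outside the window was not searched, so a lack of matches here does not show that a gene lacks such elements. A match describes letters only, since binding was not measured.

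All 8 measured genes had a higher intensity in the G-TPP array than in the DMSO array, by amounts that differed widely. CTH, CHAC1, SLC7A11, GCLC and GCLM were at least 2-fold higher, while GSS, GSR and CHAC2 were between 1.11-fold and 1.20-fold higher. Of 11091 genes that passed a brightness filter, called filtered genes here, 2.80% reached 2-fold in the same direction as these 5 of 8, and 0.550% did so in the opposite one. At 4-fold the count was 3 of 8, beside 0.514% of filtered genes upward and 0.00% downward, and values above 0 were found for 8 of 8, beside 44.0%. The median log2 difference was 1.26 over the 8 genes and -0.04 over the filtered genes. Because the genes were chosen with earlier results of these data known, these counts describe them and are no independent support. The filter asked for an intensity of 239.2 in the brighter array, and CTH passed it by its G-TPP value alone. With no filter the count was necessarily again 5, since all 8 genes passed the filter, beside 1.74% of all 18417 genes.

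**Figure D1:**
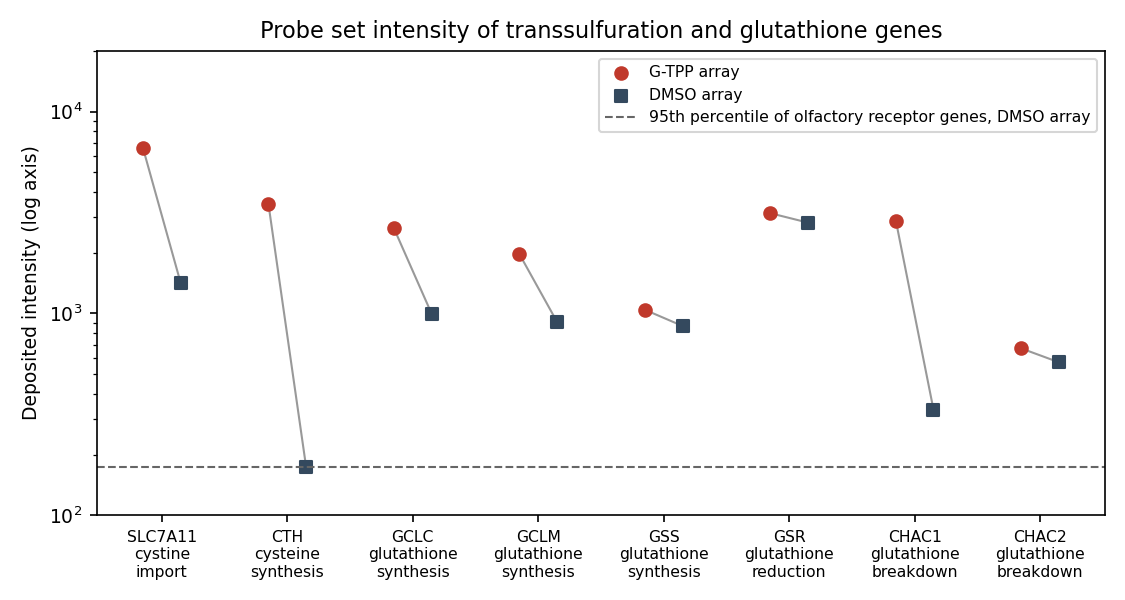
Deposited intensity of the 8 measured genes on a log axis, with the G-TPP array (circles) left of the DMSO array (squares) and a grey line joining the values of a gene; the dashed line is the 95th percentile of olfactory receptor genes with DMSO. CTH has 3477 with G-TPP against 173.9 with DMSO, on the dashed line, whereas GSR has 3136 with G-TPP against 2817 with DMSO.

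SLC7A11 encodes the light chain of the cystine-glutamate exchanger, through which most cultured cells obtain cysteine. Its probe set 8102800 had an intensity of 6595 in the G-TPP array, against 1418 in the DMSO array, 4.65-fold higher and a log2 difference of 2.22. SLC3A2, the heavy chain that the exchanger shares with other amino acid transporters, had 3854 with G-TPP and 2076 with DMSO, 1.86-fold higher and under 2-fold. SLC1A4, a carrier of neutral amino acids that include cysteine, had 1648 with G-TPP and 375.5 with DMSO, 4.39-fold higher. Over the 5 filtered genes of the import list, SLC7A11 among them, 4 were above 0, beside 44.0% of all filtered genes. The median log2 difference was 0.89, which fell to 0.30 when the 3 dim genes were let in. Without SLC7A11, 3 of 4 filtered genes were above 0 and the median was 0.74.

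CTH encodes cystathionine gamma-lyase, the enzyme that releases cysteine from cystathionine. Probe set 7902290 had 3477 in the G-TPP array, against 173.9 in the DMSO array, 20.0-fold higher, with a log2 difference of 4.32 between the deposited values. The DMSO value of CTH was 1.01 times the level that 95% of 341 olfactory receptor genes stay under in that array (172.6). Expression with DMSO could thus not be told from the array's floor, which limits how well the fold is known. With a pseudocount of 16 the log2 difference of CTH was 4.20. When the median olfactory receptor intensity, 64.6 with G-TPP and 68.5 with DMSO, was taken off each array, a setting chosen after seeing the data, CTH was 32.4-fold higher.

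The other genes listed for cysteine and methionine metabolism did not share the height of CTH. Of the 11 other filtered genes in the list of transsulfuration and cysteine use, 2 were at least 2-fold higher and 7 were below 0. Their median log2 difference was -0.04. Over all filtered genes 2.80% were at least 2-fold higher, 44.0% were above 0 and the median was also -0.04. The list is broad, and some of its genes, such as SUOX, SQOR and PANK1, do not act on cysteine itself. GOT1, the cytosolic aspartate aminotransferase, which can also transaminate cysteine, had 5187 with G-TPP and 1854 with DMSO, 2.80-fold higher. CARS1, the cytosolic cysteinyl-tRNA synthetase, was 2.66-fold higher. In the methionine cycle, which supplies homocysteine, 9 genes passed the filter and 1 was at least 2-fold lower, beside 0.550% of all filtered genes. That gene was MAT2A, which makes S-adenosylmethionine outside the liver, with 2552 in the G-TPP array against 6552 in the DMSO array, 2.57-fold lower. SLC7A5, an importer of large neutral amino acids such as methionine, was 1.77-fold higher, and AHCYL1, a relative of adenosylhomocysteinase, was 1.35-fold higher.

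Both subunits of glutamate-cysteine ligase, the rate-limiting enzyme of glutathione synthesis, were higher with G-TPP. The catalytic subunit gene GCLC (probe set 8127158) had 2641 in the G-TPP array, against 997.9 in the DMSO array, 2.65-fold higher and a log2 difference of 1.40. The modifier subunit gene GCLM (probe set 7917779) had 1968 with G-TPP, against 908.2 with DMSO, 2.17-fold higher and a log2 difference of 1.12. The log2 differences of the subunits were 0.29 apart. For scale, paired probe sets of 1 gene, in 328 genes, gave log2 differences that were apart by a root mean square of 0.24, so the order of GCLC over GCLM rests on a gap of about that size. GSS, the synthetase of the second step, had 1043 with G-TPP and 867.0 with DMSO, 1.20-fold higher and a log2 difference of 0.27. GSS lay 0.85 under GCLM on the log2 scale.

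GSR, the NADPH-dependent glutathione reductase, had 3136 in the G-TPP array and 2817 in the DMSO array, 1.11-fold higher. Its log2 difference of 0.15 is smaller than the standard deviation of 0.19 among the olfactory receptor genes, most of which are silent outside the nose. Those genes are far dimmer than GSR, with a median of 64.6 with G-TPP and 68.5 with DMSO. Scatter between replicate arrays at the brightness of GSR was not measured. In the list of redox and NADPH-supply genes, 12 other genes passed the filter, with a median log2 difference of 0.05. Of these, 3 were at least 2-fold higher and none 2-fold lower, beside 2.80% and 0.550% of all filtered genes. At such a share, finding none of 12 lower does not set the list apart. GLRX, the cytosolic glutaredoxin that removes glutathione from protein thiols, had 807.7 with G-TPP and 251.5 with DMSO, 3.21-fold higher. IDH1, a cytosolic source of NADPH, had 3578 with G-TPP and 1535 with DMSO, 2.33-fold higher. GPX8, a peroxidase of the endoplasmic reticulum membrane, was 2.26-fold higher.

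The ChaC enzymes of glutathione breakdown, gamma-glutamylcyclotransferases of the cytosol, differed from each other. CHAC1 (probe set 7982868), the stress-inducible form, had 2884 in the G-TPP array, against 334.3 in the DMSO array, 8.63-fold higher and a log2 difference of 3.11. CHAC2 (probe set 8041961), known as the constitutive form, had 670.9 with G-TPP and 572.9 with DMSO, 1.17-fold higher and a log2 difference of 0.23. The paralogs were 2.88 apart on the log2 scale, beside the 0.24 between probe sets of 1 gene. Among 6 other filtered genes of breakdown none was 2-fold higher or lower, and the median log2 difference was -0.19. Over all filtered genes 2.80% were 2-fold higher and 0.550% 2-fold lower, so none of 6 does not set these genes apart. GGCT, which turns the gamma-glutamyl amino acids of the gamma-glutamyl cycle into 5-oxoproline, was 1.36-fold lower, and the transferase relative GGT5 was 1.17-fold lower.

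**Figure D2:**
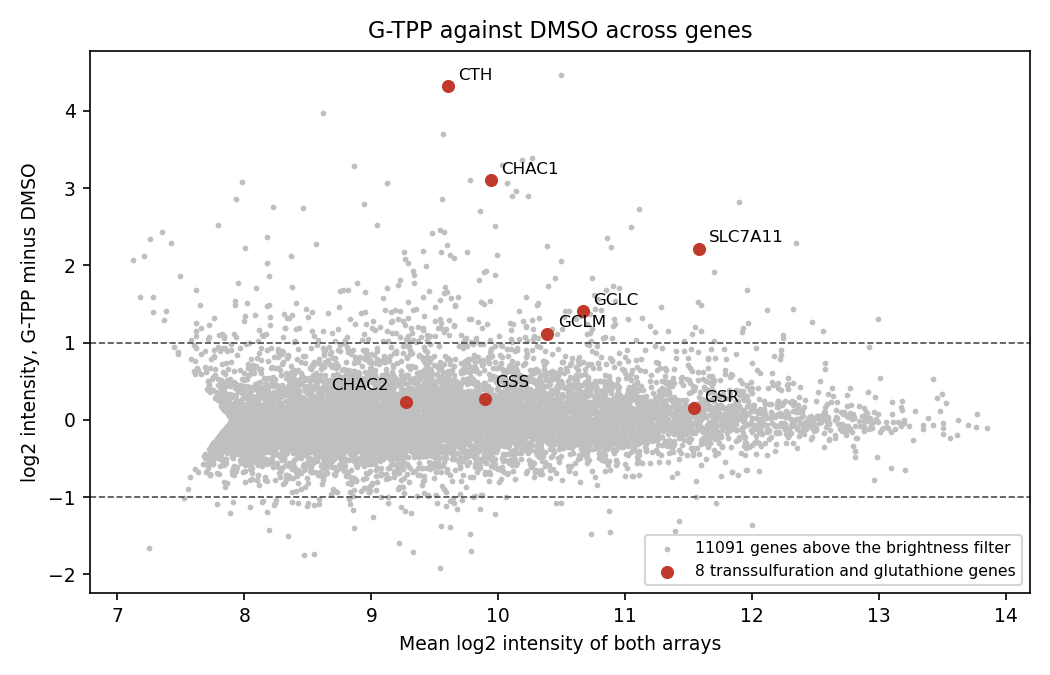
Log2 difference, G-TPP minus DMSO, against the mean log2 intensity of both arrays for 11091 filtered genes (grey) and the 8 measured transsulfuration and glutathione genes (red); dashed lines mark 2-fold. CTH, CHAC1, SLC7A11, GCLC and GCLM lie above the upper line, and GSS, GSR and CHAC2 lie within the grey band at 0.27, 0.15 and 0.23.

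Genes for enzymes and transporters that use glutathione were counted in the same way. Of 15 filtered glutathione transferases and glyoxalase-type genes none reached 2-fold, 10 were below 0 and the median log2 difference was -0.12. The 3 genes with the largest differences were all lower with G-TPP, namely the kappa-class transferase GSTK1 (1.28-fold), GSTM2 (1.26-fold) and GSTO1 (1.23-fold), and near-identical GSTM genes can share probes. Of 10 genes for glutathione transport none reached 2-fold and the median was -0.21. Since 2.80% of all filtered genes were 2-fold higher and 0.550% 2-fold lower, counts of 0 in lists of this size do not set them apart. The exporters ABCC5 and ABCC3 were 1.41-fold and 1.26-fold lower, and SLC25A10, a dicarboxylate carrier of mitochondria proposed to carry glutathione, was 1.36-fold lower. Over the 8 pathway lists, 67 genes other than the members passed the filter, of which 6 (8.96%) were at least 2-fold higher and 1 at least 2-fold lower, with a median log2 difference of -0.04. Over all filtered genes these shares were 2.80% and 0.550%, and the median was also -0.04. The lists were chosen with earlier results of these data known.

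**Figure D3:**
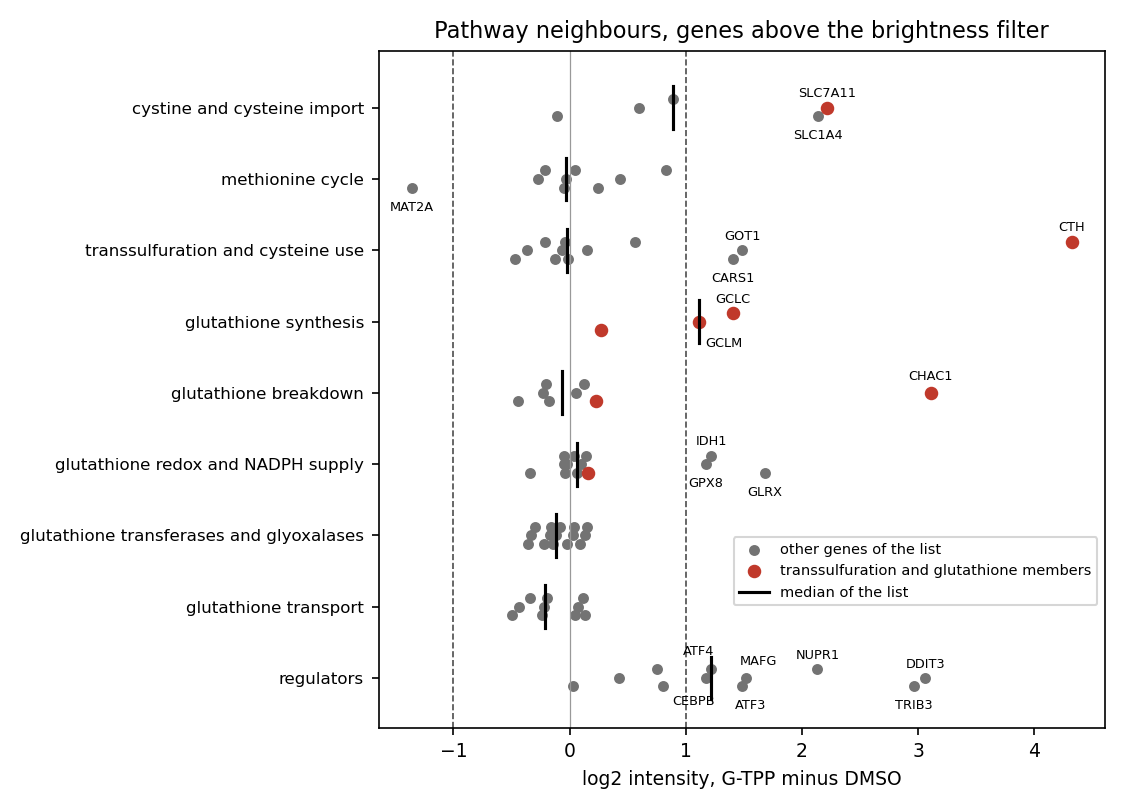
Log2 difference, G-TPP minus DMSO, of the filtered genes in each pathway list, with members in red, other genes in grey, list medians as black bars and 2-fold as dashed lines; genes past 2-fold are named. The medians of glutathione synthesis (1.12) and of the regulators (1.22) lie above 2-fold, and those of transferases (-0.12) and transport (-0.21) lie below 0. The glutathione synthesis list holds 3 genes, all of them members, and its median is the value of GCLM. The regulators' median is the value of 1 of the 2 ATF4 probe sets, and it was 0.80 with the dimmest probe set of each gene.

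Genes for regulators of this pathway and their cofactors lay mostly higher in the G-TPP array. All 11 filtered genes of that list were above 0 and 7 were at least 2-fold higher, with a median log2 difference of 1.22. Over all filtered genes 44.0% were above 0 and 2.80% at least 2-fold higher. The list was chosen with earlier results of these data known, so these counts describe it and are no independent support. ATF3 and MAFF passed the filter by their G-TPP values alone. ATF4 is counted by the probe set with the higher mean intensity, which was the dimmer of its 2 probe sets with DMSO. The median of 1.22 is the value of that probe set. By its other probe set ATF4 was below 0 (-0.43), and with the dimmest probe set of each gene the median was 0.80. DDIT3, which encodes CHOP, had 3104 with G-TPP and 371.6 with DMSO, 8.35-fold higher, and the pseudokinase gene TRIB3 and the stress cofactor gene NUPR1 were 7.78-fold and 4.38-fold higher. The 2 probe sets of ATF4 pointed opposite ways. The one with the higher mean had 2919 with G-TPP and 1255 with DMSO (2.33-fold higher). The other had 1327 with G-TPP and 1785 with DMSO, and the log2 differences of the 2 averaged 0.40. CEBPB was 2.26-fold higher, and ATF3, whose DMSO value lay under the floor, was at least 2.35-fold higher. On the NRF2 side, NFE2L2 had 3806 with G-TPP and 2180 with DMSO, 1.75-fold higher. BACH1, a repressor at antioxidant elements, was 1.68-fold higher. KEAP1, the adaptor that marks NRF2 for degradation, had 859.6 with G-TPP and 842.3 with DMSO, 1.02-fold higher. MAFG, a small MAF partner of NRF2 and BACH1, had log2 differences of 1.52, 1.29 and 0.71 by its 3 probe sets. These are transcript levels, and activity of the factors was not measured.

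The filtered genes nearest in log2 difference to each member past 2-fold are given as a description over 2 arrays. Among those above the floor in both arrays, SESN2 (3.10) lay beside CHAC1 (3.11), and XBP1 (2.24) beside SLC7A11 (2.22). The sulfiredoxin gene SRXN1 (1.40) and RAPGEF2 (1.40) lay beside GCLC (1.40), and TMF1 (1.12) beside GCLM (1.12). The deposited values of HSPA6, CMKLR2, IL1A, ERO1B and CYP2R1 were also among the nearest, HSPA6 and CMKLR2 to CTH. No order is read from these, because CTH is itself at the floor with DMSO and CMKLR2, IL1A, ERO1B and CYP2R1 lie under it there. Against that floor CMKLR2 was at least 9.01-fold, IL1A at least 4.24-fold, ERO1B at least 3.22-fold and CYP2R1 at least 1.93-fold higher.

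The arrays were alike in brightness, with a median intensity of 215.5 with G-TPP and 224.8 with DMSO over 33297 probe sets. Of 14 astroglial or glioma markers 11 were above the floor in each array, among them SOX2, VIM and CD44, whereas ALDH1L1, AQP4 and S100B were not. GFAP lay nearer the floor (173.6 with G-TPP and 172.6 with DMSO), at 231.5 with G-TPP and 245.2 with DMSO. Of 6 neuronal markers 5, and of 6 epithelial markers 4, were also above the floor in each array, so such counts do not identify the cells. Some of the astroglial or glioma markers were lower with G-TPP. PDGFRA had 490.1 in the G-TPP array against 1592 in the DMSO array (3.25-fold lower), SOX2 had 1629 with G-TPP against 4434 with DMSO (2.72-fold lower) and SOX9 had 466.7 with G-TPP against 921.9 with DMSO (1.98-fold lower). Of the 10 filtered markers 2 were at least 2-fold lower, beside 0.550% of all filtered genes, and the summed intensity of the 14 was 20233 with G-TPP and 25427 with DMSO. The part of this in the differences above was not tested. Of 8 hepatocyte markers, which matter because liver is rich in transsulfuration enzymes, 1 was above the floor with G-TPP and 2 with DMSO, and albumin (ALB) was at 56.6 with G-TPP and 58.6 with DMSO. In RNA from a whole culture, fewer cells of a type and less RNA per cell cannot be told apart.

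Other processing left these differences close to where they were. Over lowess centring, median centring, quantile normalization and a pseudocount of 16, log2 differences ran from 4.20 to 4.37 for CTH, 3.05 to 3.16 for CHAC1, 2.20 to 2.27 for SLC7A11, 1.36 to 1.46 for GCLC and 1.08 to 1.17 for GCLM. GSS, GSR and CHAC2 stayed between 0.11 and 0.32. The choice among probe sets could not matter, since each of these genes has 1.

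**Figure D4:**
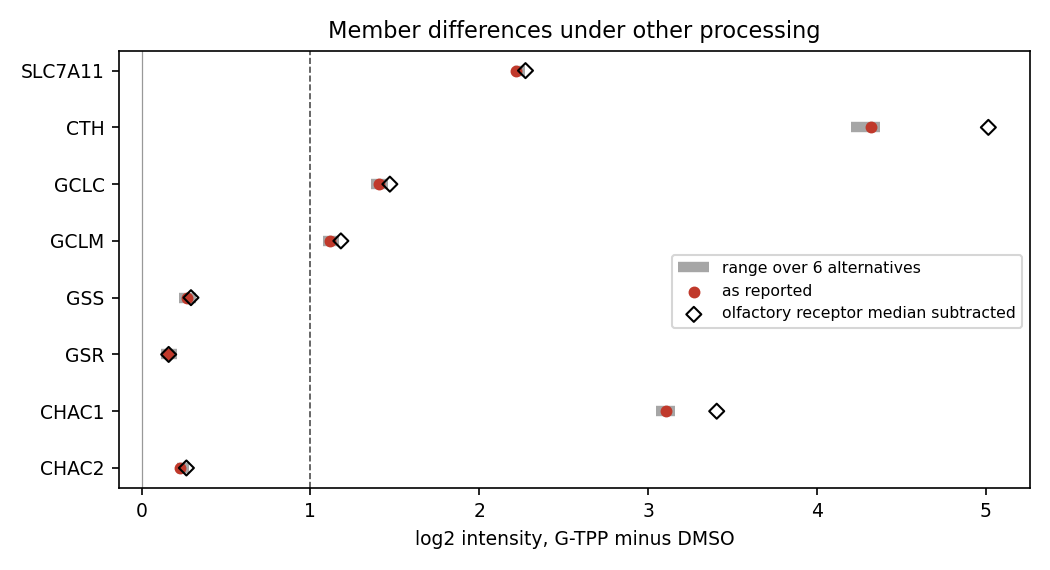
Log2 difference, G-TPP minus DMSO, of each measured gene as reported (red), its range over 6 alternatives (grey bar) and after the median olfactory receptor intensity was subtracted from each array (diamonds); the dashed line is 2-fold. CTH moves from 4.32 as reported to 5.02 after the subtraction and CHAC1 from 3.11 to 3.41, while no gene crosses the 2-fold line.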

How the data were processed

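Per the labels' protocols, RNA isolated with Trizol (6 µg) was turned into biotinylated cRNA for Affymetrix arrays. For every probe set the authors deposited an intensity in each array, made with RMA in Affymetrix Expression Console 1.1.2 per the submitters' processing notes. The range of these values shows that they are linear and not log-transformed. How they were made linear, and any filter, is not given in the sources used here. RMA makes the distributions of arrays alike, so a change in total RNA per cell is not visible.

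Probe sets were named through the platform annotation and gene IDs updated to RefSeq symbols (GRCh38.p14). Of 33297 probe sets, 19460 had 1 symbol, 1754 several and 12083 were not listed. For 769 genes with several probe sets the brightest by mean was used. Values were taken to log2 with no pseudocount, and G-TPP minus DMSO was computed. Genes were kept if their brighter array reached the median over probe sets of that value (239.2). With 1 array per group nothing was tested, and differences were counted at 2-fold. For arrays, their number limits the precision.

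Named genes were all members, in each pathway list the genes past 2-fold and the 3 largest differences, 5 regulators, and the 2 nearest genes to each member past 2-fold. Markers of foreign cell types were also listed. Of 8 immune, 6 endothelial, 6 neuronal and 6 epithelial markers, 3, 2, 5 and 4 were above the floor with G-TPP and 4, 2, 5 and 4 with DMSO. Members and lists were chosen with earlier results of these data known. The counting was tested on simulated data. Software was Python 3.11.15 with matplotlib 3.10.9, pandas 2.3.3, numpy 2.4.6 and, for lowess, statsmodels 0.14.6.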

Additional observations from a re-analysis of the deposited data

How the results depend on the processing

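The count of 5 genes at least 2-fold higher held at a 1.5-fold threshold, with a 75th percentile filter and with a pseudocount of 16. The count also held under lowess centring, median centring and quantile normalization, and after subtracting the median olfactory receptor intensity. Dropping the filter could not move the count, since all measured members passed it. Both other choices among probe sets could not move it either, since each member has 1 probe set. It was 3 at a 3-fold threshold, by construction. The subtraction, chosen after seeing the data, gave log2 differences of 5.02 for CTH and 3.41 for CHAC1, the members dimmest with DMSO. List medians moved where the filter changed their genes: the import list to 0.30 with no filter and 1.51 with the 75th percentile filter, and under that filter cysteine use to 1.45 and breakdown to 0.13. With the dimmest probe set the regulators' median was 0.80. In 139 other comparisons of a value with its alternative the move stayed within 0.17, or within 1.5 times for a count. Some of these could not move, such as the members under another choice among probe sets, so 139 is no measure of robustness. The whole-array median log2 difference of filtered genes lay between -0.04 and 0.02 over these settings, -0.06 with no filter. Leaving out a replicate was not possible with 1 array per group. No paired analysis was possible because each group has 1 array. Signal near the floor limits CTH with DMSO.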
